A study of Danio rerio with 80 samples.

Results

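The transcript response of whole zebrafish to 0.133 µM 8-methylbenzo[a]pyrene (8-MBaP) at 72 h post fertilization (hpf) was measured in 4 exposed and 4 control libraries, out of 80 libraries in the series. The members were the 8 libraries whose column names carry that compound, concentration and time or the matching control, and no measured value was used to choose them. All animals were tropical 5D wild-type zebrafish embryos, held singly in wells of 96-well plates and freed of the chorion by enzyme. They were exposed statically, from 6 hpf per the labels, without renewal. The exposed group received 8-MBaP at 0.133 µM in the solvent dimethyl sulfoxide (DMSO) and the control group (0 µM) received DMSO alone, so every group shared the solvent. Comparison groups were benzo[a]pyrene (BaP) and 6-methylbenzo[a]pyrene (6-MBaP) at 0.133 µM, 8-MBaP at 1.33 and 13.3 µM, and the 0.133 µM 8-MBaP and control groups at 48 hpf, each with 4 libraries. One library was made from the RNA of a pool of 6 whole embryos. Per the labels, 0.133 µM was chosen as a concentration without visible malformation, and 72 hpf as the age at which malformations at higher concentrations set in. Each compound and concentration occupied its own plate and the controls another, so plate and exposure cannot be told apart, and the spread given throughout is that between pools of 1 plate. The pools sequenced were those with the highest RNA concentration among the pools collected.

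BaP is a polycyclic aromatic hydrocarbon of combustion. 8-MBaP and 6-MBaP carry a single methyl group, at the eighth and the sixth ring position. Many such compounds bind the aryl hydrocarbon receptor (AHR), which enters the nucleus, pairs with Arnt and switches on genes of oxidative metabolism, above all the cytochromes of the CYP1 family. The receptor also switches on its own brakes, among them *tiparp* and the AHR repressors. In zebrafish embryos *ahr2* is the receptor best known for mediating the toxicity of AHR ligands, and *cyp1a* is the standard readout of its activity, which in the embryo is seen in vascular endothelium, liver and skin among other tissues.

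Depth was even between the groups. The exposed libraries held 5919236 to 6922331 reads and the controls 6062436 to 7811015, and the 10 most abundant genes took 22.4 to 26.3% and 22.9 to 24.4% of them. A read was found for 17863 to 18791 genes in the exposed libraries and 18081 to 18573 in the controls. Pairwise correlations of log2 values were 0.959 to 0.964 within the exposed group, 0.964 to 0.968 within the controls and 0.960 to 0.965 between them. Exposed pool A differed most from its replicates, with a chi-square per degree of freedom of up to 15.6 that in each pair lay above the 4.92 to 9.70 of the other pairs within a group, and it had the highest share of reads in the 10 most abundant genes. No list member that was tested was at 0 in all 8 libraries. Of the 28 gene lists used below, which hold 422 genes, 318 genes could be paired with an identifier and 299 were tested. The lists were chosen with earlier results of these data known, and some hold genes that the study reported as changed. Counts of calls and signs within a list are therefore not independent of these data. As in any bulk sample, fewer cells of a type and less RNA per cell cannot be told apart.

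In embryos given 0.133 µM 8-MBaP, 51 of 18423 genes tested (0.277%) were called at an adjusted p (edgeR, Benjamini-Hochberg) of 0.05 or under. Higher in the exposed pools were 35 genes (0.19% of those tested) and lower were 16 (0.0868%). An unadjusted p of 0.05 or under was found for 1116 genes (6.06%). Leaving aside *cxcl19* and *RHCG*, which had almost no reads in the controls, the largest rises were of the cytochromes *cyp1a* and *cyp1b1*, and the falls of highest abundance were of the keratins *krt4* and *cyt1*. Of the called genes, 25 rose and 6 fell by more than 2-fold. The median log2 fold change was 1.40 for the rises and −0.86 for the falls, against −0.0022 over all genes. In 33 of the rises all exposed pools lay above all control pools, and in 15 of the falls all lay below. Over all genes, such complete separation was found upward in 335 (1.82%) and downward in 323 (1.75%). With no filter on low counts the number called was 103, the 51 among them, and without control pool C the falls were 10 instead of 16. Without exposed pool A 46 genes were called, 44 of them among the 51, with 35 higher and 11 lower. Values below are normalized counts, that is reads scaled to a common library size, for pools A, B, C and D in that order. Fold changes are log2 with a standard error (SE) derived from the test statistic.

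**Figure D1:**
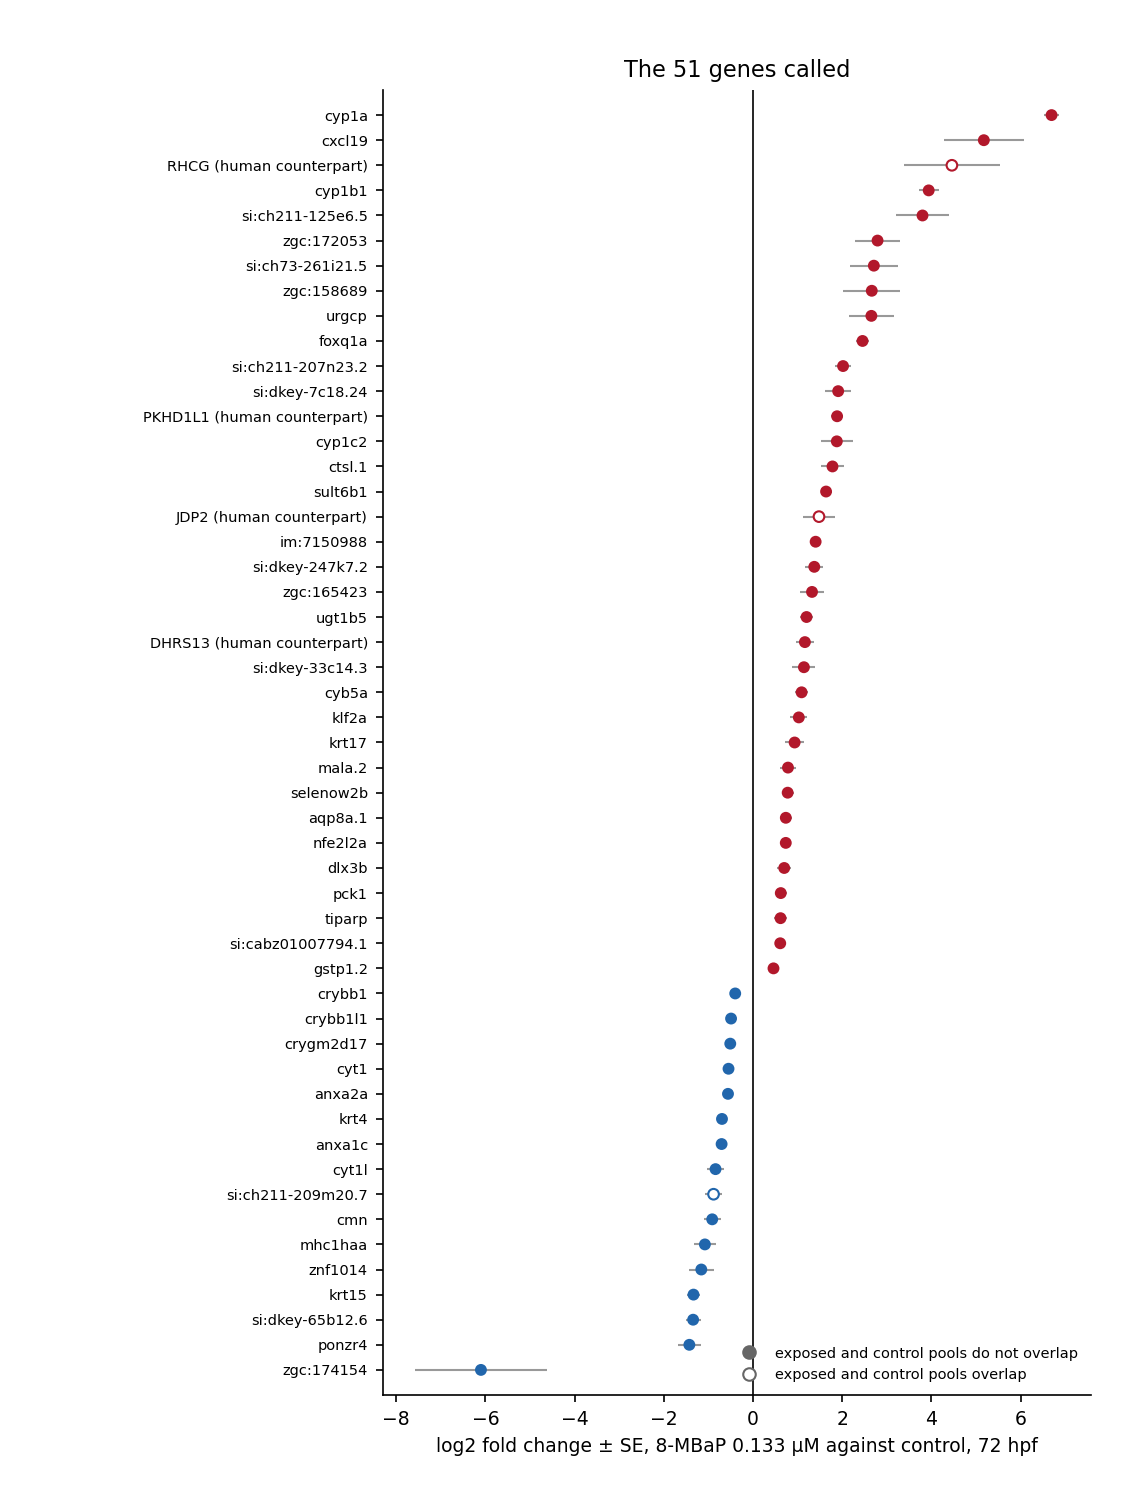
Log2 fold change (± SE) of the 51 genes called in 0.133 µM 8-MBaP against control at 72 hpf, 4 pools a group, ordered by size on the vertical axis. Open symbols mark genes whose exposed and control pools overlap. The values run from 6.69 for *cyp1a* down through the crystallins and keratins to the steepest falls, and 35 of the 51 lie above 0.

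Of the 4 tested CYP1 monooxygenase genes, 3 rose and none fell, with a list median of 2.91. Over all genes 0.19% were called higher and 0.0868% lower. *cyp1a*, the standard marker of AHR activity, was at 2723, 3000.2, 3596 and 3435 in the exposed pools and at 41.3, 27.0, 25.8 and 29.7 in the controls. The lowest exposed pool thus lay far above the highest control pool, and the mean was 103-fold higher (log2 6.69 ± 0.17, adjusted p = 2.2e-39). *cyp1b1*, which oxidizes hydrocarbons and steroids outside the liver, was at 229, 252, 235 and 259.9 in the exposed pools against 29.0, 16.2, 12.4 and 7.65 (log2 3.94 ± 0.22, adjusted p = 3.0e-21). The exposed pools were closely grouped, while the controls spread more, at low counts. *cyp1c2*, a fish CYP1 gene, stood at 25.8, 12.9, 28.7 and 37.8 in the exposed pools and at 7.81, 5.41, 7.21 and 7.65 in the controls (log2 1.88 ± 0.36, adjusted p = 0.0014). Its groups did not overlap, although exposed pool B came closest to the controls. *cyp1d1*, which AHR ligands are not known to switch on in zebrafish, gave 52.5, 61.5, 48.6 and 30.9 against 42.4, 43.3, 52.5 and 35.7 with a log2 fold change of 0.16 ± 0.23 and an adjusted p of 0.98. Summed over the 4 genes, the family held 3031 to 3909 normalized counts in the exposed pools and 80.7 to 121 in the controls. Most of the sum in the exposed pools came from *cyp1a*, so it says little about the other members.

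None of the 6 tested genes of the receptor complex was called, and their median log2 fold change was 0.0062. *ahr2*, the main receptor of the embryo, was at 115, 90.2, 84.0 and 105 in the exposed pools and at 56.9, 55.0, 60.8 and 71.4 in the controls. The pools did not overlap, but the adjusted p was 0.11 at a log2 fold change of 0.69 ± 0.18. The partner genes *arnt* and *arnt2* had log2 fold changes of −0.16 ± 1.15 and 0.06 ± 0.10, the chaperone gene *hsp90ab1* 0.05 ± 0.08, and the co-chaperone *aip* −0.03 ± 0.11. Another receptor gene, *ahr1b*, had a control mean of only 2.61 counts and a log2 fold change of −0.34 ± 1.02, and *arnt* too had under 5 counts in every pool. The adjusted p of these 5 genes were 0.978 or above. Of the repressors only *tiparp*, an ADP-ribosyltransferase that shuts AHR signalling down, was tested. It was at 190.1, 197, 188 and 200.4 in the exposed pools against 106, 141, 125 and 132 (log2 0.62 ± 0.14, adjusted p = 0.019). The exposed pools were nearly equal and lay above every control, but the call was lost without exposed pool B or D or control pool A or C (adjusted p 0.0622 to 0.148).

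All 8 tested genes of a list of other known responders to AHR ligands had a positive log2 fold change, with a median of 0.42, and 3 were called. Over all genes 49.6% were positive and 0.19% were called higher. This list too was chosen with earlier results of these data known, so its counts are not independent support. *foxq1a*, a forkhead transcription factor gene, stood at 327, 391, 429 and 431 in the exposed pools and 60.3, 81.1, 60.8 and 82.4 in the controls (log2 2.46 ± 0.14, adjusted p = 2.1e-20). *sult6b1*, a cytosolic sulfotransferase gene, was at 1352, 1485, 1666 and 1758 against 465, 443, 566 and 535 (log2 1.64 ± 0.12, adjusted p = 1.1e-15). The exposed pools of both genes were all more than 2-fold above every control pool. *nfe2l2a*, which encodes the antioxidant regulator Nrf2, was at 958, 984, 952 and 997 in the exposed pools and 594, 652, 450.2 and 639.9 in the controls (log2 0.73 ± 0.11, adjusted p = 5.7e-06). Not called were *foxq1b* (log2 0.58 ± 0.16, adjusted p = 0.12), the glucuronosyltransferase *ugt1a1* (0.27 ± 0.13, adjusted p = 0.79), the quinone reductase *nqo1* (0.19 ± 0.14, adjusted p = 0.93), the cystine transporter *slc7a11* (0.19 ± 0.32, adjusted p = 0.98) and *wfikkn1*, which had almost no reads. For *foxq1b* the pools gave 138, 168, 167 and 179.8 against 123, 92.8, 139 and 85.8, and the adjusted p was 0.0488 with no filter on low counts and 0.0391 without control pool C.

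**Figure D2:**
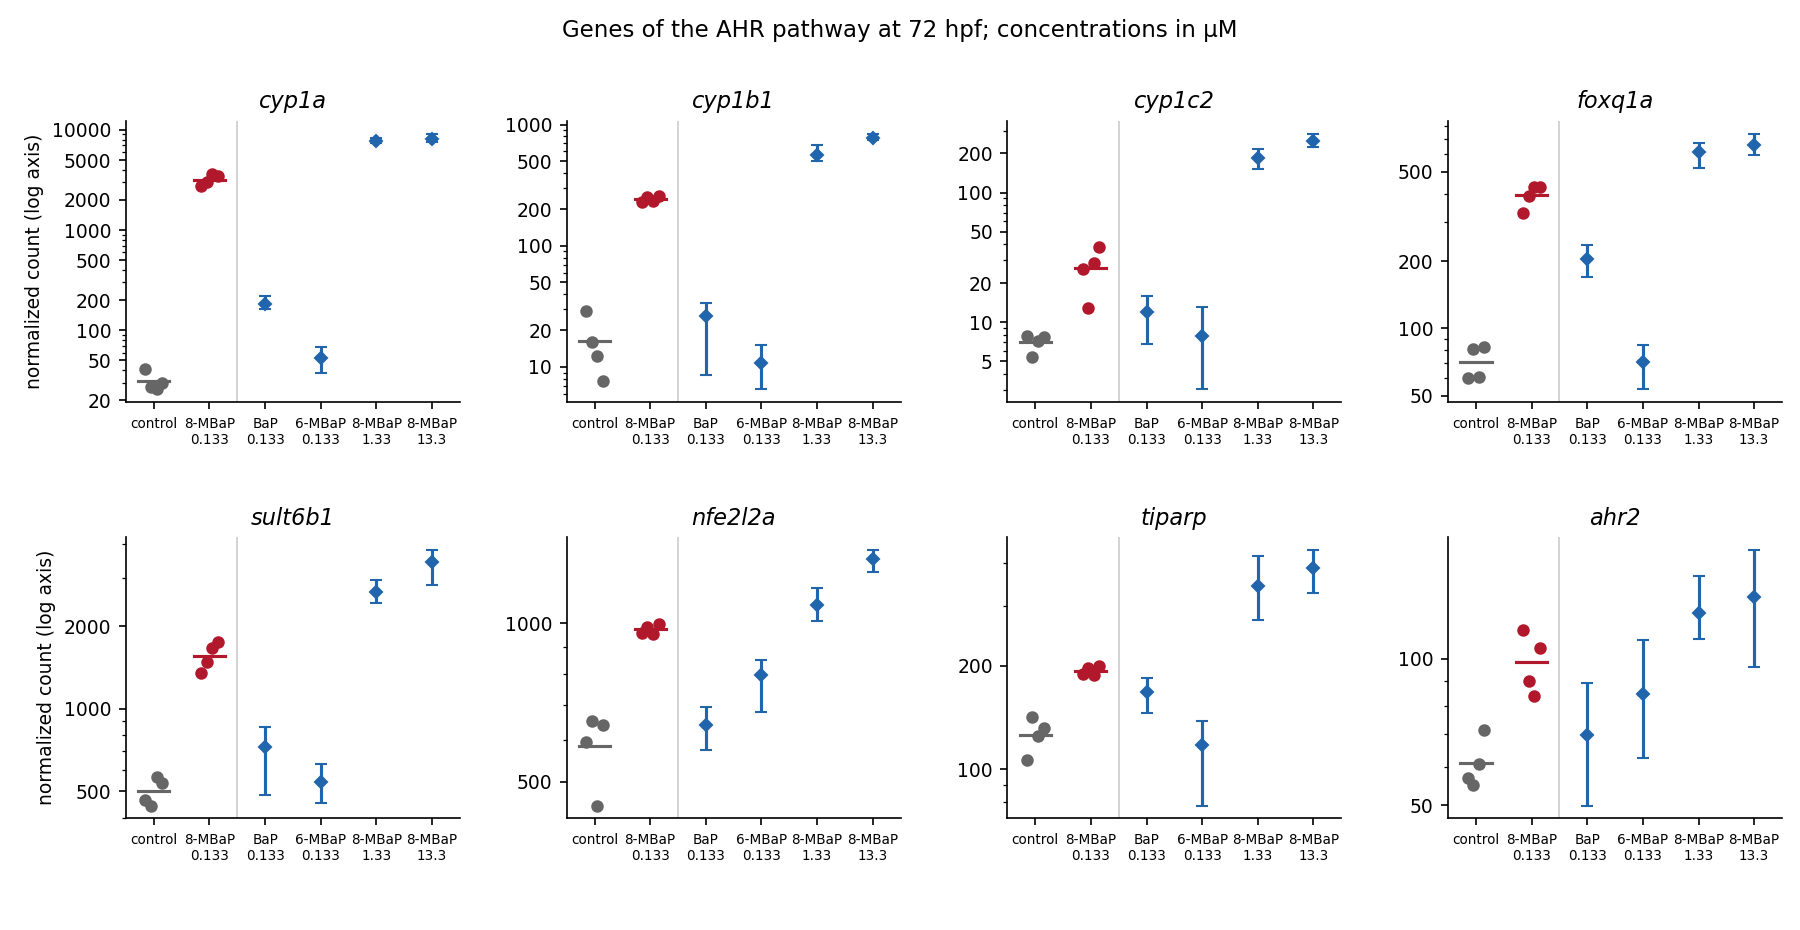
Normalized counts (log axis) of 8 AHR-related genes at 72 hpf. Circles are the 4 pools of the control and of 0.133 µM 8-MBaP with their mean as a line, and diamonds with bars are the mean and the lowest to highest pool of BaP and 6-MBaP at 0.133 µM and of 8-MBaP at 1.33 and 13.3 µM. For *cyp1a* the means run from 31.0 in controls through 53.2 in 6-MBaP and 184 in BaP to 3189 in 8-MBaP at the same concentration.

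*ugt1b5*, a glucuronosyltransferase gene that makes xenobiotics water-soluble, was at 265, 330.0, 289 and 352 in the exposed pools and 132, 115, 171 and 121 in the controls (log2 1.2 ± 0.14, adjusted p = 2.4e-08). *cyb5a*, whose product hands electrons to cytochromes P450, was at 274, 418, 402 and 429 against 136, 217, 191 and 169 (log2 1.09 ± 0.15, adjusted p = 7.4e-07). Of 12 tested genes in the list of other xenobiotic cytochromes P450 and their partners, it alone was called, and the list median was −0.07. The most abundant of the others were *cyp2y3* (log2 −0.40 ± 0.16, adjusted p = 0.67) and *cyb5r3* (−0.11 ± 0.13, adjusted p = 0.97). *cyp2y3* was called (log2 −0.68, adjusted p = 0.0452) when exposed pool B was left out. *gstp1.2*, a glutathione transferase gene, was at 14,481, 14,087, 13,868 and 17,334 against 10,807, 11,916, 10,126 and 10,629.6 (log2 0.46 ± 0.09, adjusted p = 0.0013), and *selenow2b*, a selenoprotein gene, rose by 0.78 ± 0.13. *gstp1.2* lies 3 genes from ENSDARG00000109310, which also rose, in the RefSeq gene order. Of the 21 tested antioxidant genes of the Nrf2 list only *nfe2l2a* itself was called, and the median was 0.10. A positive log2 fold change was found for 16 of the 21, against 49.6% of all genes. Of the list members not called, the peroxiredoxins *prdx2* (0.05 ± 0.08) and *prdx1* (0.14 ± 0.11) were the most abundant. None of the 10 tested p53 and DNA damage genes was called (median −0.05), with *ccng1* at −0.13 ± 0.13 and *sesn1* at −0.11 ± 0.10.

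Several of the steepest rises outside the AHR lists were of little described genes. A gene with only a clone name, ENSDARG00000069381, was at 32.5, 68.4, 72.9 and 102 in the exposed pools and 7.81, 2.70, 1.03 and 7.65 in the controls (log2 3.80 ± 0.60, adjusted p = 4.0e-05). *zgc:172053* was at 33.4, 15.9, 50.8 and 50.4 against 4.46, 5.41, 6.18 and 5.10 (log2 2.79 ± 0.50, adjusted p = 6.3e-04). Both were low in every control. *si:ch73-261i21.5* gave 16.2, 24.8, 14.4 and 28.6 against 0, 1.80, 5.15 and 5.10 (log2 2.71 ± 0.54, adjusted p = 0.0032), and *urgcp* 48.7, 10.9, 15.5 and 48.1 against 3.35, 3.60, 5.15 and 6.80 (2.65 ± 0.51, adjusted p = 0.0018). In *urgcp* exposed pools A and D were several times higher than B and C, and all 4 lay above the controls. *si:ch211-207n23.2*, with the RefSeq synonym *ly6d*, was more abundant, at 587, 655, 831 and 790.1 against 164, 138, 127 and 273 (log2 2.02 ± 0.18, adjusted p = 1.1e-12). *si:dkey-7c18.24* was at 139, 274, 288 and 358 against 65.9 to 73.1 (1.91 ± 0.30, adjusted p = 3.3e-05), with exposed pool A lowest.

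The counterpart of human *PKHD1L1*, which encodes a large membrane protein, was among the tightest responses. It stood at 439, 527, 502 and 522 in the exposed pools and 129, 122, 122 and 164 in the controls (log2 1.89 ± 0.14, adjusted p = 3.0e-16). *ctsl.1*, a cathepsin L gene of the myeloid and immune list, was at 82.1, 73.3, 119 and 57.3 against 19.0, 10.8, 34.0 and 32.3 (log2 1.78 ± 0.25, adjusted p = 4.5e-06). It was the only called gene of the 14 tested in that list, whose median was 0.28 and whose most abundant members, the lysozyme *lyz* and *nfkbiaa*, were at 0.08 ± 0.23 and −0.16 ± 0.16. The list sum was 626 to 717 normalized counts in the exposed pools and 494 to 651 in the controls. The transcription factor *klf2a*, best known from endothelium under blood flow, gave 329, 253, 369 and 364 against 212, 147, 196 and 94.3 (log2 1.03 ± 0.19, adjusted p = 9.5e-04). ENSDARG00000109310, which has only a clone name, was at 875, 797, 958 and 887 against 337, 336, 362 and 295 (1.40 ± 0.12, adjusted p = 2.3e-13), with no overlap. The counterpart of human *JDP2*, a bZIP repressor of AP-1, gave 73.5, 58.5, 39.8 and 24.0 against 13.4, 27.9, 11.3 and 17.0 (log2 1.48 ± 0.35, adjusted p = 0.04). Its pools overlapped, and the call was lost without exposed pool A or B or control pool A, C or D (adjusted p 0.143 to 0.304).

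The remaining rises ran from 0.61 to 2.66 on the log2 scale, leaving aside the genes with a handful of reads. They were *zgc:158689* (2.66 ± 0.64), *si:dkey-247k7.2* (1.37 ± 0.20), *zgc:165423* (1.32 ± 0.27), the counterpart of human *DHRS13*, a dehydrogenase gene (1.16 ± 0.20), *si:dkey-33c14.3*, a long noncoding RNA in RefSeq (1.14 ± 0.26), *mala.2* (0.78 ± 0.18), the aquaporin *aqp8a.1* (0.74 ± 0.14), *pck1*, the rate-limiting enzyme of gluconeogenesis (0.62 ± 0.13), and *si:cabz01007794.1* (0.61 ± 0.12). The call of *pck1* was lost without exposed pool B or C or control pool B (adjusted p 0.0625 to 0.133), and that of *mala.2* without exposed pool B or D or control pool A or C (adjusted p 0.0622 to 0.312). *zgc:158689* was lost without exposed pool B, C or D or control pool A, B or C (adjusted p 0.0627 to 0.23), *si:dkey-33c14.3* without exposed pool C or control pool B or D (adjusted p 0.0541 to 0.221), *zgc:165423* without exposed pool D (adjusted p 0.0936) and *si:cabz01007794.1* without control pool C (adjusted p 0.0838). A pair of called genes was almost silent in the controls. The chemokine gene *cxcl19* had 50 reads over the exposed pools and 1 over the controls, a ratio of 54.2 (95% exact interval 9.28 to 2180, which covers counting error only). One of the zebrafish counterparts of human *RHCG*, an ammonia transporter gene (ENSDARG00000007080), had 49 reads against 2, a ratio of 26.5 (6.96 to 225). Most of these reads lay in exposed pool D, pool A overlapped the controls, and the call was lost without exposed pool B or D or control pool A, B or D (adjusted p 0.0551 to 0.546).

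The most abundant falls were of genes of the embryonic skin. Of 20 tested epidermis genes 6 fell and 1 rose, and 15 had a negative log2 fold change, with a median of −0.13. Over all genes 0.0868% were called lower and 0.19% higher, and 49.6% were positive. The epidermis list, like the others, was chosen with earlier results of these data known. *krt4*, a keratin of the outermost skin layer, was at 32,494, 31,036, 29,778 and 30,794 in the exposed pools and 48,188, 52,486, 46,069 and 54,260.3 in the controls (log2 −0.70 ± 0.08, adjusted p = 2.4e-08). *cyt1*, a type I keratin gene of that layer, was at 27,687, 24,344, 23,693 and 25,951 against 37,448, 35,835, 41,269 and 34,227 (log2 −0.55 ± 0.10, adjusted p = 4.1e-04). For both genes every exposed pool lay below every control. *cyt1l*, which lies next to *cyt1* in the RefSeq gene order and is similar to it, was at 10,896, 12,879, 12,472 and 11,636 against 24,421, 18,352, 18,021 and 24,940.3 (log2 −0.84 ± 0.19, adjusted p = 0.015). Its call was lost without exposed pool A or D or control pool A or D (adjusted p 0.0673 to 0.119) and in DESeq2 (adjusted p 0.0875). Of the called keratins *krt15* fell the most, from 666, 717, 690.3 and 483 in the controls to 276, 233, 266 and 237 in the exposed pools (log2 −1.33 ± 0.15, adjusted p = 1.4e-08).

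Of the annexins, which bind membranes in the presence of calcium, *anxa1c* was at 906, 812, 929 and 845 against 1617, 1419, 1328 and 1327 (log2 −0.70 ± 0.12, adjusted p = 2.6e-04). *anxa2a* was at 972, 1073, 1003 and 1108 against 1627, 1534, 1371 and 1600.1 (−0.56 ± 0.11, adjusted p = 0.0019). Both fell without overlap between the groups. In contrast, *krt17*, the neighbour of *cyt1* on its other side, rose from 445, 455, 432 and 444 in the controls to 759, 866, 767 and 1002 in the exposed pools (log2 0.93 ± 0.21, adjusted p = 0.015). Its call was lost without exposed pool D or control pool A, C or D (adjusted p 0.053 to 0.0979) and in DESeq2 (adjusted p 0.0644), and whether reads were shared between these similar keratins was not tested. Other abundant skin genes were not called, among them *krt91* (log2 −0.30 ± 0.11, adjusted p = 0.56), the basal keratin *krt5* (0.11 ± 0.08, adjusted p = 0.93) and the adhesion genes *epcam* (−0.18 ± 0.16, adjusted p = 0.95) and *cdh1* (−0.04 ± 0.14, adjusted p = 0.99). Summed over the 20 genes, the exposed pools held 98,389 to 103,719 normalized counts and the controls 140,465 to 149,807. Most of these sums, and of the difference between them, came from the called keratins *krt4*, *cyt1* and *cyt1l*. Their means were 31,025, 25,419 and 11,971 in the exposed pools and 50,251, 37,195 and 21,434 in the controls. The sum therefore says little about the rest of the list. Whether the share of skin cells in the pools differed was not tested.

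**Figure D3:**
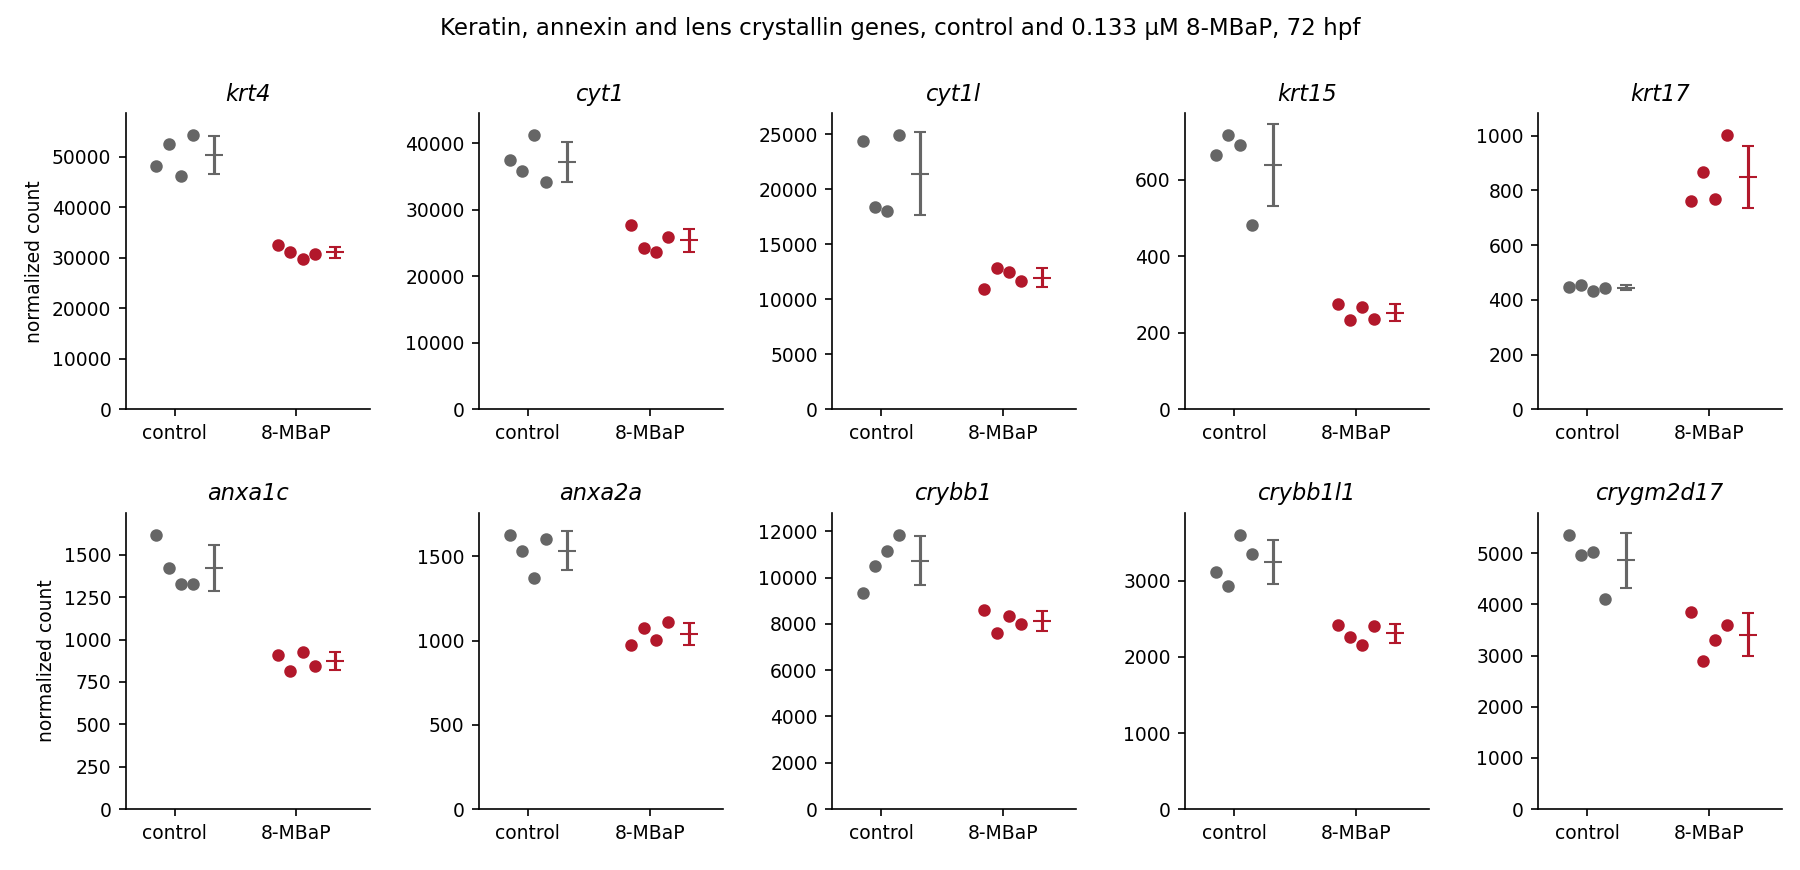
Normalized counts per pool of 7 skin genes and 3 lens crystallins at 72 hpf, control against 0.133 µM 8-MBaP, with mean ± SD (4 pools a group) and each gene on its own axis. The exposed pools of *krt4* lie between 29,778 and 32,494 and the controls between 46,069 and 54,260.3, whereas *krt17* moves the other way.

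Beyond skin and lens, *ponzr4*, of the zebrafish onzin-related gene family, was at 33.4, 48.6, 29.8 and 56.1 in the exposed pools and 108, 88.3, 98.9 and 155 in the controls (log2 −1.43 ± 0.26, adjusted p = 9.6e-04). *si:dkey-65b12.6* was at 143, 109, 117 and 136 against 357, 314, 268 and 345 (−1.34 ± 0.17, adjusted p = 7.5e-08). The groups of both genes were clearly apart. The zinc finger gene *znf1014* was at 22.9, 30.7, 17.7 and 13.7 against 50.2, 37.0, 47.4 and 57.8 (log2 −1.16 ± 0.28, adjusted p = 0.046). The class I histocompatibility gene *mhc1haa*, from a family of similar copies that differ between fish, was at 53.5, 44.6, 44.2 and 41.2 against 89.3, 90.1, 144 and 67.1 (−1.08 ± 0.24, adjusted p = 0.019). *cmn* (calymmin), a gene of the notochord sheath, was at 66.9, 100.1, 61.9 and 103 against 139.5, 110.0, 171 and 204 (−0.91 ± 0.19, adjusted p = 0.0053). *si:ch211-209m20.7* was at 112, 132, 93.9 and 172 against 212, 158, 215 and 351 (−0.88 ± 0.19, adjusted p = 0.0087), and its pools overlapped. All 4 of these calls depended on single libraries. That of *znf1014* was lost without exposed pool A, C or D or control pool A, C or D (adjusted p 0.105 to 0.247), that of *mhc1haa* without exposed pool B, C or D or control pool C (adjusted p 0.0705 to 0.297), that of *cmn* without exposed pool A or C or control pool D (adjusted p 0.0648 to 0.119) and that of *si:ch211-209m20.7* without exposed pool A or C or control pool D (adjusted p 0.0661 to 0.32). *zgc:174154* had no reads in the exposed pools and 37 in the controls. Its control pools were at 1.12, 0.901, 9.27 and 22.1, so most of these reads lay in control pools C and D. Summed over the group, it was at least 11.4-fold lower with a floor of 3 counts. That bound does not reflect the spread between the control pools. The call of *zgc:174154* was lost without exposed pool A, B, C or D or control pool C or D (adjusted p 0.0926 to 0.368).

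The transparent lens fibre is packed with crystallins. *crybb1*, a beta crystallin gene, was at 8612, 7594, 8319 and 7982 in the exposed pools and 9349, 10,518, 11,155 and 11,841 in the controls (log2 −0.40 ± 0.09, adjusted p = 0.022). *crybb1l1* was at 2423, 2258, 2159 and 2409 against 3119, 2936, 3605 and 3349.7 (−0.49 ± 0.11, adjusted p = 0.016) and the gamma crystallin *crygm2d17* at 3844, 2885, 3313 and 3602 against 5359, 4956, 5020.5 and 4100.1 (−0.51 ± 0.11, adjusted p = 0.014). All 3 falls were small and without overlap between the groups. The first was lost without exposed pool B, C or D or control pool C or D (adjusted p 0.055 to 0.196), the next without exposed pool B or C or control pool C or D (adjusted p 0.0627 to 0.141) and the last without exposed pool B or C or control pool A or C (adjusted p 0.0615 to 0.136). In the list of 10 tested lens genes, which holds only *crybb1* of these, 9 had a negative log2 fold change and the median was −0.28. Its most abundant members were *crygm2d13* (log2 −0.30 ± 0.09, adjusted p = 0.22) and *crygm2d14* (−0.28 ± 0.09, adjusted p = 0.26). These genes and *crygm2d17* belong to a large family of similar genes. Reads may be split among them, which was not tested. The list sum was 48,744 to 54,187 normalized counts in the exposed pools and 61,864 to 63,251 in the controls. BaP and 6-MBaP at 0.133 µM gave *crybb1* means of 8686 and 8289.5, also below the control mean of 10,716, and 8-MBaP differed from them by −0.10 [−0.28 to 0.08] and −0.03 [−0.21 to 0.15].

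Of 11 tested fin ridge regulators, whose median was 0.07, *dlx3b* alone was called, a homeobox gene of the fin ridge and of early ear and skin. It was at 181, 115, 126 and 152 in the exposed pools and 92.6, 83.8, 104 and 74.8 in the controls (log2 0.70 ± 0.16, adjusted p = 0.022). The call was lost without exposed pool A or D or control pool A, B or D (adjusted p 0.0519 to 0.248). The most abundant other regulators, *tp63* and *dlx5a*, were at 0.03 ± 0.12 and −0.07 ± 0.13. None of the 11 tested genes of the actinotrichia and fin fold, the collagen-like fibres that stiffen the larval fin, was called (median 0.09, 10 of 11 positive), and the abundant collagens *col1a1a* and *col1a2* were at 0.02 ± 0.07 and 0.12 ± 0.07. The sum over these 11 genes was 32,419 to 32,963 normalized counts in the exposed pools and 29,877 to 32,199 in the controls, without overlap. Such a sum gives most weight to the abundant members, and how often list sums separate by chance was not tested. Of the 9 tested ionocyte genes, which serve ion uptake across the skin, none was called, although 8 were negative and the median was −0.54. The carbonic anhydrase *ca15a* was at 58.3, 89.2, 75.1 and 46.9 against 105, 133, 107 and 102 (log2 −0.73 ± 0.19, adjusted p = 0.10), without overlap. It was called without exposed pool B (log2 −0.89, adjusted p = 0.0333) and with no filter on low counts (adjusted p = 0.0349). The sodium pump subunit *atp1a1a.3* had a log2 fold change of 0.40 ± 0.26. The ionocyte sum was 217 to 298 normalized counts in the exposed pools and 290 to 361 in the controls, and these ranges overlapped.

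In 15 further lists no gene was called. Some of them were one-sided in sign, where 49.6% of all genes were positive. All 11 early stress genes and all 5 intestine genes were positive, and 10 of 11 exocrine pancreas genes, 7 of 8 heart genes and 12 of 16 cell cycle genes were negative. The median log2 fold change was −0.02 over 10 skeletal muscle genes (*pvalb2* −0.16 ± 0.07, *tpma* −0.05 ± 0.09), 0.04 over 20 genes of liver and yolk lipid (*apoa2* 0.01 ± 0.09, *apoa1a* −0.16 ± 0.09) and 0.05 over 9 photoreceptor genes (*opn1sw2* 0.05 ± 0.14, *opn1mw1* 0.07 ± 0.15). It was 0.27 over 10 erythroid genes (*hbae3* 0.40 ± 0.18, *hbae1.3* 0.06 ± 0.17), with list sums of 4584 to 7432 in the exposed and 4017 to 5975 in the control pools, which overlapped. Exocrine pancreas genes had a median of −0.10 (11 genes, *prss59.2* −0.08 ± 0.21, *prss1* −0.07 ± 0.20), intestine genes 0.26 (5 genes, *fabp2* 0.17 ± 0.16, *cldn15la* 0.13 ± 0.14) and heart genes −0.35 (8 genes, *hand2* −0.07 ± 0.14, *myl7* −0.33 ± 0.17). For cartilage and bone the median was −0.14 (10 genes, *col9a2* −0.35 ± 0.10, *matn1* −0.14 ± 0.12), for neural genes 0.02 (10 genes, *elavl4* 0.02 ± 0.08, *elavl3* 0.07 ± 0.10) and for the cell cycle −0.06 (16 genes, *pcna* −0.06 ± 0.09, *ccnd1* 0.01 ± 0.09). Retinoid and thyroid genes had a median of 0.17 (14 genes, *rbp4* 0.12 ± 0.09, *aldh1a2* −0.09 ± 0.13) and endocrine genes 0.05 (8 genes, *nr3c1* 0.07 ± 0.11, *ins* 0.21 ± 0.13). Matricellular genes stood at 0.16 (6 genes, *sparc* 0.01 ± 0.07, *ccn2a* 0.44 ± 0.13), clock genes at 0.07 (14 genes, *nr1d2a* 0.22 ± 0.13, *ciarta* 0.10 ± 0.11) and early stress genes at 0.15 (11 genes, *jun* 0.02 ± 0.11, *xbp1* 0.14 ± 0.11). The sum of the early stress genes was 2081 to 2281 normalized counts in the exposed pools and 1928 to 1995 in the controls, without overlap. That of the endocrine genes did not overlap either, at 1030 to 1136 against 891 to 1019. Both sums give most weight to the abundant members of their list. In the other lists of this paragraph the sums overlapped. These medians are set beside −0.0022 over all genes.

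The response to 8-MBaP was compared with that to the unmethylated parent compound and to the isomer methylated at the sixth position, both at 0.133 µM and 72 hpf. These 2 pairs share the exposed pools of the comparison above but not the control pools, so their counts among the 51 genes are not independent of those calls. Over all genes 36 (0.195%) differed between 8-MBaP and BaP, 25 higher and 11 lower in 8-MBaP, and 40 (0.217%) between 8-MBaP and 6-MBaP, 29 higher and 11 lower. Of the 51 genes called against control, 29 differed from BaP and 29 from 6-MBaP, and adjustment over both pairs left 29 and 29. Of the 51, 21 differed from both compounds and 14 from neither. Those that differed from BaP were 21 rises that were higher and 8 falls that were lower in 8-MBaP, and those that differed from 6-MBaP 23 and 6 of the same kinds. *cyp1a* was at a mean of 184 (163 to 219) in BaP and 53.2 (37.8 to 67.5) in 6-MBaP. The 8-MBaP pools lay above all of these, by a log2 difference of 4.11 [3.84 to 4.38] and 5.88 [5.57 to 6.2], where brackets give the 95% interval, 1.96 SE on either side. *cyp1b1* differed by 3.2 [2.80 to 3.60] from BaP and 4.48 [4.01 to 4.96] from 6-MBaP. For *foxq1a*, whose mean was 204 in BaP and 71.0 in 6-MBaP, the differences were 0.95 [0.69 to 1.2] and 2.46 [2.18 to 2.75]. Differences of 1.11 [0.87 to 1.35] and 1.54 [1.3 to 1.78] were found for *sult6b1*, of 1.74 [1.47 to 2.00] and 1.91 [1.64 to 2.19] for *PKHD1L1* and of 0.75 [0.48 to 1.02] and 0.99 [0.71 to 1.27] for *ugt1b5*. Lower in 8-MBaP than in BaP and 6-MBaP were *krt4*, by −0.57 [−0.73 to −0.41] and −0.40 [−0.56 to −0.24], and *krt15*, by −1.17 [−1.47 to −0.86] and −1.23 [−1.53 to −0.92]. All of these passed the test in both pairs. Against the controls, BaP at this concentration had 2 called genes (0.0109%) and 6-MBaP 1 (0.00543%). The genes of BaP were *cyp1a* (log2 2.58 ± 0.17) and *foxq1a* (1.51 ± 0.15). That of 6-MBaP was the other counterpart of *RHCG*, ENSDARG00000003203 (1.13 ± 0.20), which was at 0.21 ± 0.20 in 8-MBaP and not called there. The rises among the 51 had a median of 0.43 in BaP and 0.25 in 6-MBaP, and the falls −0.16 and −0.32. These contrasts share the control pools with that of 8-MBaP, and a fit of only the groups compared called 56 genes between 8-MBaP and BaP.

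**Figure D4:**
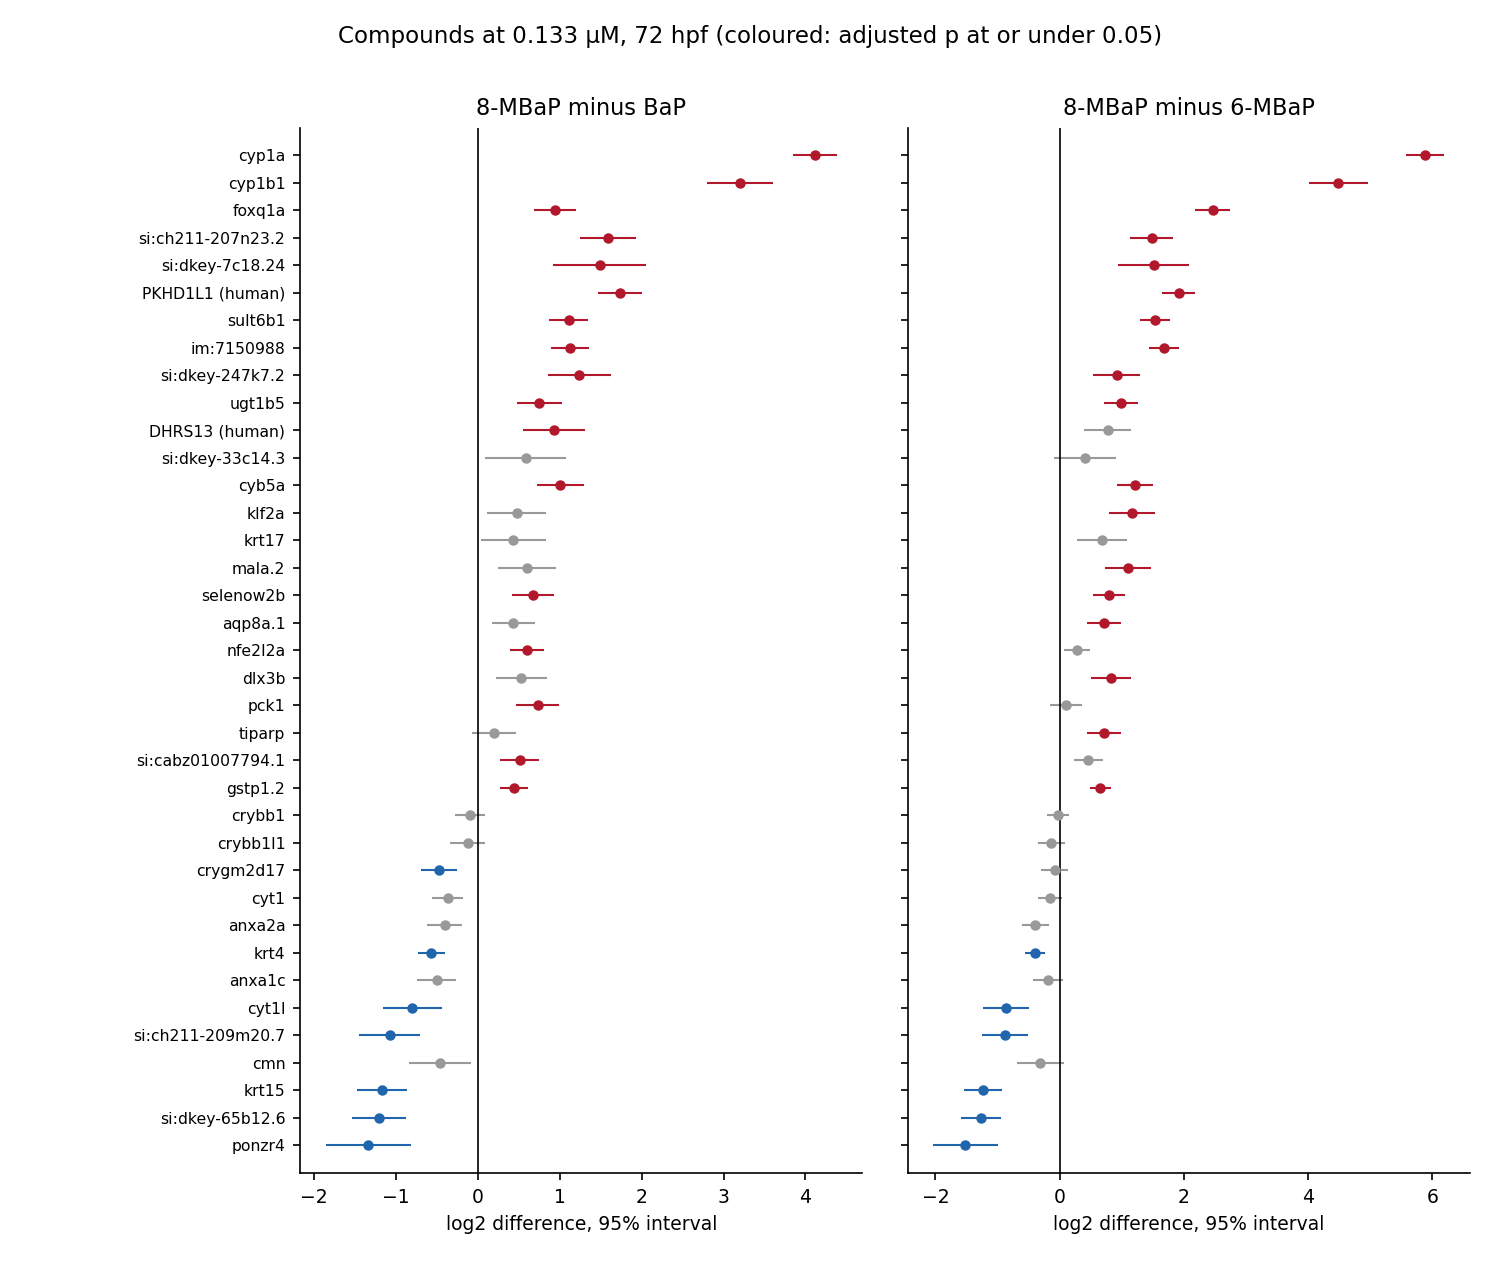
Log2 difference (95% interval) of 8-MBaP from BaP and from 6-MBaP, all at 0.133 µM and 72 hpf, 4 pools a group, for the 37 called genes with a mean of at least 100 normalized counts in the higher group. Coloured symbols passed the test across all genes. *cyp1a* and *cyp1b1* lie farthest to the right in both panels, while the interval of *crybb1* includes 0 in both.

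Not all called genes differed between the compounds. Among those that passed in neither pair, *urgcp* had means of 11.6 in BaP and 15.0 in 6-MBaP, above the control mean of 4.73. For *si:ch73-261i21.5* these means were 14.1 and 6.61 against 3.01, and for *JDP2* 37.7 and 39.1 against 17.4. *cyp1c2* was 1.13 [0.48 to 1.77] above BaP without passing the adjusted test (adjusted p = 0.22) and 1.74 [1.03 to 2.45] above 6-MBaP, which passed. *tiparp* differed from BaP by 0.20 [−0.07 to 0.47], which did not pass, and from 6-MBaP by 0.72 [0.44 to 0.99], which passed. *nfe2l2a* behaved the other way round, at 0.60 [0.39 to 0.81] from BaP, which passed, and 0.29 [0.08 to 0.49] from 6-MBaP, which did not (adjusted p = 0.56). For *cyt1* the differences were −0.36 [−0.55 to −0.18] and −0.16 [−0.34 to 0.03], and neither passed. For its neighbour *cyt1l* they were −0.80 [−1.16 to −0.43] and −0.87 [−1.23 to −0.50], and both passed. *anxa2a* was −0.40 [−0.61 to −0.19] from BaP and −0.39 [−0.60 to −0.18] from 6-MBaP, and *krt17* 0.43 [0.03 to 0.83] and 0.69 [0.28 to 1.09], none of which passed. Nor did *anxa1c*, at −0.50 [−0.74 to −0.26] and −0.19 [−0.43 to 0.05], or *cmn*, at −0.46 [−0.84 to −0.09] and −0.31 [−0.69 to 0.08]. Of the crystallins, *crybb1l1* differed by −0.12 [−0.33 to 0.09] and −0.13 [−0.35 to 0.08], intervals that include 0 as those of *crybb1* do. *crygm2d17* was lower than in BaP, by −0.47 [−0.69 to −0.25] (adjusted p = 0.043), and −0.08 [−0.30 to 0.14] from 6-MBaP. Such intervals leave room for differences of the size of their bounds and do not show that the compounds act alike.

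The called genes were followed to 1.33 and 13.3 µM, each measured in 4 pools at 72 hpf. Over all genes 31 (0.168%) differed between 1.33 and 0.133 µM, and 166 (0.901%) between 13.3 and 0.133 µM. Of the 51 genes, 14 differed at 1.33 µM, with 10 rises higher still and 4 falls lower still. At 13.3 µM 22 differed, 16 rises being higher, 4 falls lower, and 1 of each moving in the opposite direction. The 0.133 µM pools on which the 51 were called also enter these contrasts, so these counts are not independent of those calls. *cyp1a* reached means of 7812 and 8181, log2 1.29 ± 0.12 and 1.36 ± 0.12 above the lowest concentration. *cyp1b1* reached 563 and 782 (1.2 ± 0.16 and 1.68 ± 0.16). *cyp1c2* gained the most of the CYP1 genes, from 26.3 to 185 and 249.5 (2.82 ± 0.26 and 3.25 ± 0.26). *sult6b1* rose to 2659 and 3446, and *foxq1a* to 614 and 662. *tiparp* was higher at 1.33 µM (log2 difference 0.82 ± 0.13, adjusted p = 1.1e-04) and at 13.3 µM (0.99 ± 0.13, adjusted p = 5.5e-07). *cyb5a* was 1.41 ± 0.14 and 1.38 ± 0.14 above its level at 0.133 µM. Relative to 0.133 µM, *krt4* stood at −0.59 ± 0.08 and −0.63 ± 0.08, *cyt1* at −0.49 ± 0.10 and −0.58 ± 0.10 and *krt15* at −0.72 ± 0.16 and −1.17 ± 0.17, all called. The crystallin *crybb1*, at −0.05 ± 0.09 and −0.20 ± 0.09, and the annexin *anxa2a*, at −0.01 ± 0.11 and −0.02 ± 0.11, were not. Nor was *krt17*, the keratin that rose, at −0.40 ± 0.20 and −0.28 ± 0.20. Against the controls *krt17* was not called at 1.33 µM (0.53 ± 0.21, adjusted p = 0.34) or at 13.3 µM (0.65 ± 0.21, adjusted p = 0.084). The rise that turned was that of *klf2a*. At 13.3 µM its log2 difference from 0.133 µM was −1.80 ± 0.20, adjusted p = 1.8e-09, with a mean of 93.8 against 329 at 0.133 µM and 162 in the controls. Against the controls *klf2a* was called lower at 13.3 µM (−0.78 ± 0.20, adjusted p = 0.019). *znf1014*, a fall, was higher at 13.3 than at 0.133 µM (1.51 ± 0.28, adjusted p = 4.6e-04). Its mean was 61.4 at 13.3 µM, 21.3 at 0.133 µM and 48.1 in the controls. Against the controls *znf1014* was not called at 13.3 µM (0.36 ± 0.25, adjusted p = 0.64), and its call at 0.133 µM depended on single libraries. With no filter on low counts the genes that differed were 85 at 1.33 µM and 269 at 13.3 µM. The counts also depended on single libraries, with 20 genes differing at 1.33 µM when pool B of either concentration was left out and 108 at 13.3 µM without pool B of that concentration. Against the shared controls, 43 of the 51 genes were called at 1.33 µM and 47 at 13.3 µM, where 0.923% and 2.47% of all genes were. The 51 were called against these same control pools, so both counts are not independent of those calls. The medians of the 51 were 1.85 and 2.17 for the rises and −1.0 and −1.10 for the falls.

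The same exposure sampled a day earlier called 77 of 17794 genes (0.433%), 34 higher and 43 lower, in pools of other animals with their own controls. The study describes 1 plate for each compound and concentration and 1 for the controls, with pools collected at both times. Plate and exposure therefore cannot be told apart at 48 hpf either, and the 2 times are not independent of the plate. Of the 50 of the 51 genes that were tested at 48 hpf, 42 had the same sign (29 of 34 rises and 13 of 16 falls), against 52.7% of 17300 genes tested at both times. The calls shared by both times were 21, all in the same direction (15 rises and 6 falls), which is 41.2% of the calls at 72 hpf and 27.3% of those at 48 hpf. At 48 hpf the median was 0.54 for the rises and −0.33 for the falls, against 0.0054 over all genes. *cyp1a* was at 1978 to 2511 in exposed pools and 28.0 to 37.2 in controls at 48 hpf, a log2 fold change of 6.10 ± 0.17. *cyp1b1* gave 3.36 ± 0.21, *cyp1c2* 2.38 ± 0.49, *foxq1a* 3.02 ± 0.18, *PKHD1L1* 2.88 ± 0.16 and *sult6b1* 1.84 ± 0.10, all called. *ahr2*, not called at 72 hpf, was called at 48 hpf (0.85 ± 0.18, adjusted p = 0.0079), as was *ca15a* (−0.82 ± 0.20, adjusted p = 0.032). *krt4* was already lower (−0.31 ± 0.06, adjusted p = 0.0018) and *dlx3b* higher (0.56 ± 0.13, adjusted p = 0.015). *nfe2l2a* (0.34 ± 0.11, adjusted p = 0.23), *tiparp* (0.53 ± 0.14, adjusted p = 0.073), *klf2a* (0.08 ± 0.27, adjusted p = 0.97), *cyt1l* (0.17 ± 0.12, adjusted p = 0.72) and *krt17* (−0.44 ± 0.16, adjusted p = 0.31) were not called at 48 hpf. When the difference between the times was itself tested, in a fit of all 80 libraries, no gene of 19211 passed (0%). That count depended on the setting, with 41 genes called with no filter on low counts and 5 when only the compared groups were fitted. Without exposed pool A at 72 hpf the same test called 3 genes, and without control pool A at 48 hpf 1. The DESeq2 fit also called none. In edgeR 1258 of the 19211 genes had an unadjusted p of 0.05 or under, 22 of the 51 among them. The 51 were called on the 72 hpf contrast, which is a part of this difference, so that count is not independent of their choice. The smallest adjusted p was 0.1035 (edgeR), with *krt17* at 1.38 ± 0.29, the log2 fold change at 72 hpf minus that at 48 hpf.

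**Figure D5:**
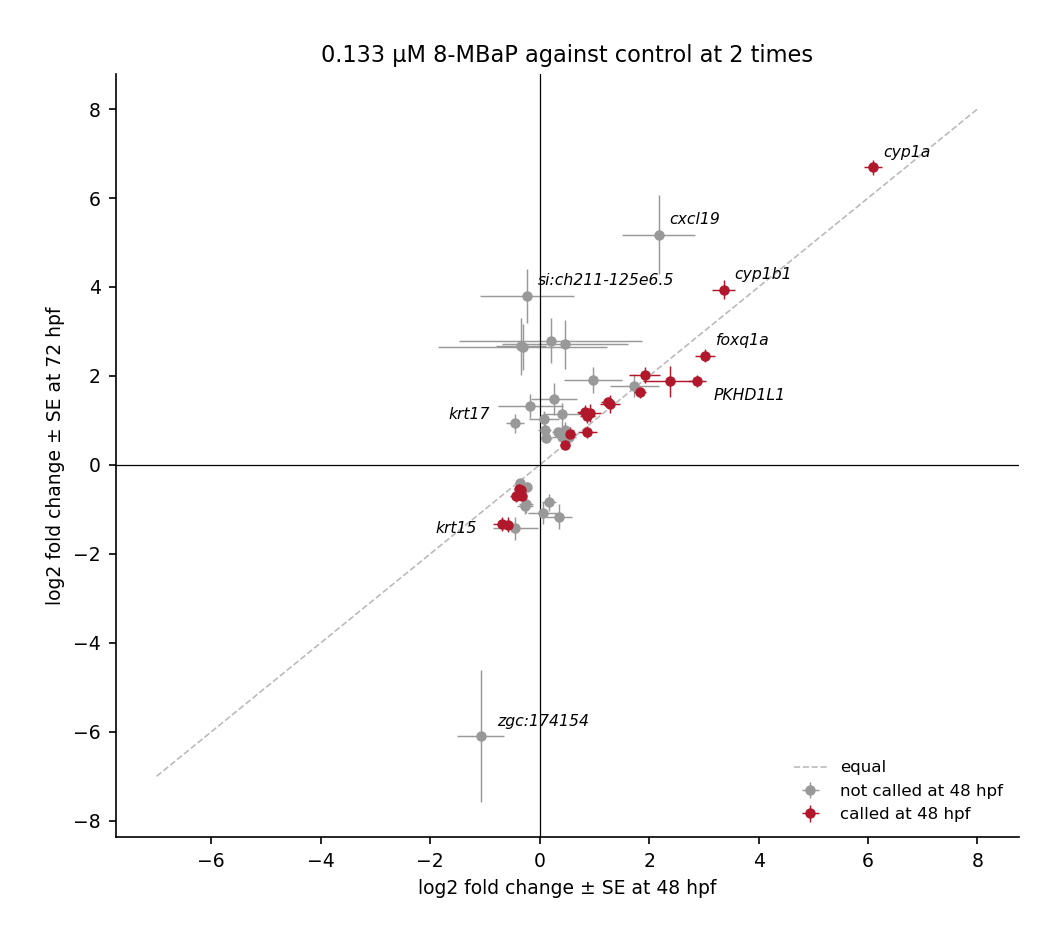
Log2 fold change (± SE) against the control of the same time, at 48 hpf (horizontal axis) and at 72 hpf (vertical axis), for the 50 called genes tested at both times, 4 pools a group. Red symbols were also called at 48 hpf, and these 21 all lie in the quadrants of equal sign, with *cyp1a* at the upper right.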

How the data were processed

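RNA of whole-embryo pools was sequenced from the 3′ end with sample barcodes (BRB-seq), and a company mapped and demultiplexed the reads. The deposited values are whole-number read counts per gene without normalization, per the file headers and the values. The aligner and the genome build are not given in the sources used here. Columns were matched to groups by name, and none was left out. Of 32520 gene IDs, 16556 were named from a table of zebrafish symbols and 8026 through a human counterpart, 4619 kept a human symbol and 3319 had none.

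A gene entered the test when 2 or more libraries of its time point had 5 or more reads. The test was run in edgeR 4.0.16 (R 4.3.3), TMM normalization and the quasi-likelihood F test, with the 10 groups of 72 hpf (40 libraries) in 1 fit. P-values were adjusted by Benjamini-Hochberg over all genes, and 0.05 or under was called. The authors used the same filter and threshold with DESeq2. The 48 hpf libraries were fitted apart, and the difference between times in a fit of all 80. Normalized counts are reads divided by the effective library size and multiplied by its mean. The SE is the absolute log2 fold change divided by the square root of the F statistic. The code was tested on simulated counts. Same-lettered pools did not deviate together across groups. Replicate libraries differed by more than sampling noise (chi-square per degree of freedom 4.92 to 15.6).

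Named genes were all called genes, with full values for the 12 largest rises and falls with a mean of at least 20 normalized counts in the higher group, all tested members of the AHR-related lists, and of each other list the called members and up to 2 more of highest control mean. The members of the comparison, the lists and this rule were chosen with earlier results of these data known, and some lists hold genes that the study reported as changed in these libraries. Genes given beyond the rule, such as *epcam*, *cdh1*, *krt5* and the fuller values of smaller changes, were chosen after their values were seen. Alternatives were DESeq2 1.42.0, RLE size factors, no low count filter, filterByExpr, a replicate block, only the compared groups, and each library left out. Intervals cover counting error or the spread between pools of 1 plate only. The labels give 6 hpf as the start of exposure, whereas the study's methods place the dosing slightly later. No sequences are shown.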

Additional observations from a re-analysis of the deposited data

Results flagged for a closer look

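Of 221 groups of 4 pools tested among the named genes, 11 held a pool set apart from the other 3 by more than Dixon's 95% critical value, and chance flags about 1 in 20 groups. Of the 101 groups of called genes 2 were among them. These were *cxcl19*, with 0.901 normalized counts in control pool B and 0 in the others, and *RHCG* (ENSDARG00000007080), with 2.06 in control pool C and 0 in the others, each resting on 1 or 2 reads.

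The other 9 were of genes not called. *wfikkn1* had 1.80 in control pool B and 0 in the others. In exposed pools, *slc7a11* was at 19.1 in pool A against 37.8 to 39.8, *cyp2y3* at 327 in pool B against 167 to 190.1, *myl7* at 157 in pool C against 105 to 114, *elavl3* at 1727 in pool A against 1420 to 1470, and *ccnd1* at 941 in pool D against 842 to 853. In control pools, *cyb5r3* was at 236 in pool C against 193 to 199, *ca15a* at 133 in pool B against 102 to 107, and *jun* at 402 in pool A against 458 to 464. No library held more than 3 of the 11.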

How the results depend on the processing

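None of the 51 calls reversed under the 14 alternatives, of which DESeq2 and filterByExpr gave no adjusted p for *zgc:174154*, and 31 (24 rises and 7 falls) stayed called in each. The 20 others lost the call when 1 library was left out, at adjusted p of 0.0519 to 0.546. Leaving out 1 library gave 42 to 48 called genes, 28 to 35 higher and 10 to 17 lower (10 without control pool C), 28 to 36 between 8-MBaP and BaP, 30 to 38 between 8-MBaP and 6-MBaP, 20 to 32 between 1.33 and 0.133 µM, 108 to 158 between 13.3 and 0.133 µM and 0 to 3 for the difference between the times. With no low count filter these numbers were 103, 61, 42, 104, 107, 85, 269 and 41. With only the compared groups fitted they were 57 genes called in all, 56 against BaP and 5 between the times. DESeq2 called 61 (46 of the 51) but not *RHCG*, *cyt1l*, *krt17* or *si:dkey-33c14.3*, and gave *zgc:174154* no adjusted p. The number was 52 with RLE size factors and 51 with filterByExpr. The letters did not pair the libraries (correlation of deviations −0.0188 to 0.0144, with 2 of 4 letters matching themselves best), and with them as a replicate block 50 genes were called (48 of the 51), 35 higher and 15 lower, without *RHCG*, *zgc:174154* and *znf1014*, 34 against BaP, 43 against 6-MBaP, 31 and 159 between concentrations and 0 between the times. The fit of the compared groups alone did not call *RHCG*, *zgc:158689*, *dlx3b*, *znf1014* and *zgc:174154*. With no low count filter *hbae3* was called at an adjusted p of 0.0077 (edgeR). The cause of these shifts was not tested. With 4 pools of 1 plate a group, differences between plates were not measured.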

Other observations

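The genes closest to the threshold without passing it included *pkp1b*, a plakophilin gene of skin desmosomes, at a log2 fold change of −1.05 ± 0.26 (adjusted p = 0.054, edgeR). The actin-binding *cotl1* was at −0.34 ± 0.08 (0.056), the serine synthesis gene *psph* at 0.64 ± 0.16 (0.060) and the growth factor gene *epgn* at 0.78 ± 0.20 (0.063). *si:ch73-368j24.14* was at −8.71 ± 2.15 (0.0656) and the chemokine gene *ccl27a* at 3.06 ± 0.77 (0.0660). They were listed after their values were seen.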
